A study of Mus musculus with 90 samples.

Results

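Liver RNA of 15 white and 63 agouti female Diversity Outbred mice was compared gene by gene. These 78 animals were taken from 90 in the series by their coat colour label and matched to the estimated count table by animal number. The other 12 animals were black and were left out. Diversity Outbred (J:DO) mice descend from crosses of several inbred founder strains and no pair of animals shares the same combination of founder segments, so coat groups differ at many loci besides those that set pigment. White animals comprised 9 given zileuton and 6 given vehicle, and agouti animals comprised 34 given zileuton and 29 given vehicle. Zileuton, an inhibitor of the enzyme 5-lipoxygenase, was instilled by mouth at 300 mg per kg once a day for 7 days, and vehicle was sterile distilled water. All animals were 6 to 20 weeks old and each gave 1 library from 25 mg of liver. Coat colour was not assigned by the experimenter, and the labels give no genotype.

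A white coat in this stock is known as the recessive loss of tyrosinase, the enzyme encoded by Tyr that starts melanin synthesis in pigment cells. Among the founders the albino strains are A/J and NOD/ShiLtJ, so a white animal has an albino founder segment on both copies of chromosome 7 at Tyr, whereas an agouti animal needs a working copy there and a banding allele of the agouti gene a on chromosome 2. Hepatocytes make no melanin. The coat itself and the alleles linked to Tyr cannot be told apart in this design, and founder segments elsewhere in the genome were not typed in the files.

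Tyr lies on chromosome 7 at 87424771 to 87493512 on the minus strand (mm10) and was almost silent in liver. It held 21 counts over all 78 libraries, with at least 1 count in 15 libraries and no more than 2 in any. White livers ranged from 0 to 0.0735 CPM, the count scaled to library size, with a median of 0, and agouti livers ranged from 0 to 0.0772 CPM with a median of 0. The groups overlapped, and Tyr was too low to be tested. Its promoter is shown because it belongs to the gene that defines the white coat. The sequence is the RefSeq reference (GRCm38.p6, chr7:87493463-87493762, minus strand, 250 bases before to 50 after the start), not that of an albino founder. Capitals mark CATGTG, the core of the M-box bound by the melanocyte factor MITF, searched on both strands.
Tyr: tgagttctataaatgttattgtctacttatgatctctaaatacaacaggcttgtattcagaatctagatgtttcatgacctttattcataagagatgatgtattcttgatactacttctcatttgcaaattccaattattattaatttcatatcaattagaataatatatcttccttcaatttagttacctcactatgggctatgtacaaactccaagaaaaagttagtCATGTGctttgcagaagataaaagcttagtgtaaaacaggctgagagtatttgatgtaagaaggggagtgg
The same letters occur in the promoters of 15.9% of 27025 genes in that table. The gene a (chromosome 2, 154791402 to 155051012) has no row in the count table.

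Library totals ran from 18846491 to 36285652 estimated counts in white animals (median 28223017) and from 12664568 to 41360173 in agouti animals (median 25664569). Liver identity was clear: Alb, the serum albumin gene, lay between 49222 and 141435 CPM in the 78 libraries. Of the library total and 10 summed marker levels tested (two-sided permutation test of the difference of means, 100000 resamples), none passed after Benjamini-Hochberg adjustment. The smallest unadjusted p was 0.0968 (adjusted p = 0.885), for lymphocyte markers with means of 6.74 CPM in white and 8.41 CPM in agouti animals. In bulk liver, fewer cells of a type and less RNA per cell cannot be told apart. A pair of libraries stood apart. Acta1, skeletal muscle actin, was at 982 CPM in white replicate 9 (zileuton) and at 1473 CPM in agouti replicate 6 (vehicle), and at no more than 0.204 CPM in the other 76 libraries. The sum of 17 skeletal muscle markers was 3520 CPM in that white library and 6850 CPM in that agouti library. It ranged from 2.75 to 18.1 CPM over the other white animals and from 2.07 to 22.1 CPM over the other agouti animals. The permutation tests above used all libraries. Values per gene and list are from all libraries, with those without this pair named as such, and numbers within a coat follow the order of deposition only.

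Few genes were called between white and agouti livers. Of 14204 genes tested, 6 passed the edgeR quasi-likelihood F test with exposure as a term, that is, they had an adjusted p (Benjamini-Hochberg) under 0.05 and are named called genes here, 0.0422% of those tested, and all 6 were higher in white animals. None of the 6 was called when the run of 50 animal numbers, or the plate row and column, entered the edgeR fit. Those fits called 0 genes, with 880 and 804 at an unadjusted p under 0.05, and 7 of 15 white but 9 of 63 agouti animals fell in 1 run. The 6 called genes were Krt4, Pkp1, Fhl3, Col17a1, Lor and Hcar2. Krt4, Pkp1, Col17a1 and Lor are known from stratified epithelium. Krt4 encodes a keratin of the mouth and oesophagus lining, Pkp1 the desmosomal protein plakophilin, Col17a1 a collagen of the epithelial basement membrane junction, and Lor the cornified envelope protein loricrin. Fhl3 encodes a LIM domain protein abundant in skeletal muscle, and Hcar2 the hydroxycarboxylic acid receptor for niacin and ketone bodies. Of these, only Krt4 met the planned rule for naming genes, and the other 5 are named because the count is small.

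Krt4 (chromosome 15, 101918535 to 101924735) ranged from 0 to 78.8 CPM in white animals with a median of 0.109 CPM, and from 0 to 3.73 CPM in agouti animals with a median of 0.0719 CPM. The single value of 78.8 CPM came from white replicate 9, and the next white animal was at 1.84 CPM, inside the agouti range. The fitted log2 fold change was 3.61 ± 0.57 SE (edgeR adjusted p = 1.73e-04). Without the pair of libraries of highest Acta1 it was 0.51, with a 95% interval from -0.72 to 1.74 (edgeR adjusted p = 0.954).

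Pkp1 (chromosome 1, 135871395 to 135919207) was at 10.96 CPM in white replicate 9, and the other white animals reached 0.464 CPM at most, against 0.553 CPM at most in agouti animals. Its log2 fold change was 2.57 ± 0.47 SE with all libraries and 0.30 without the pair (edgeR adjusted p = 0.967). Col17a1 (chromosome 19, 47646344 to 47692094) was at 8.55 CPM in the same library, with medians of 0.380 CPM in white and 0.244 CPM in agouti animals. Of the white animals, 12 of 15 were above the agouti median. Its log2 fold change was 1.76 ± 0.34 SE with all libraries and 0.61 without the pair, with an interval from 0.00 to 1.22 (edgeR adjusted p = 0.773). Fhl3 (chromosome 4, 124700701 to 124708611) was at 17.9 CPM in white replicate 9, and in agouti animals it was highest, at 3.67 CPM, in agouti replicate 6. Its log2 fold change was 1.67 ± 0.31 SE with all libraries and 0.27 without the pair (edgeR adjusted p = 0.872). Lor (chromosome 3, 92080271 to 92083142) was at 6.77 CPM in white replicate 9 and at no more than 0.451 CPM in the other white animals, against 0.505 CPM at most in agouti animals. Without the pair it was too low to be tested. The groups overlapped for all 5 of these genes.

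**Figure D1:**
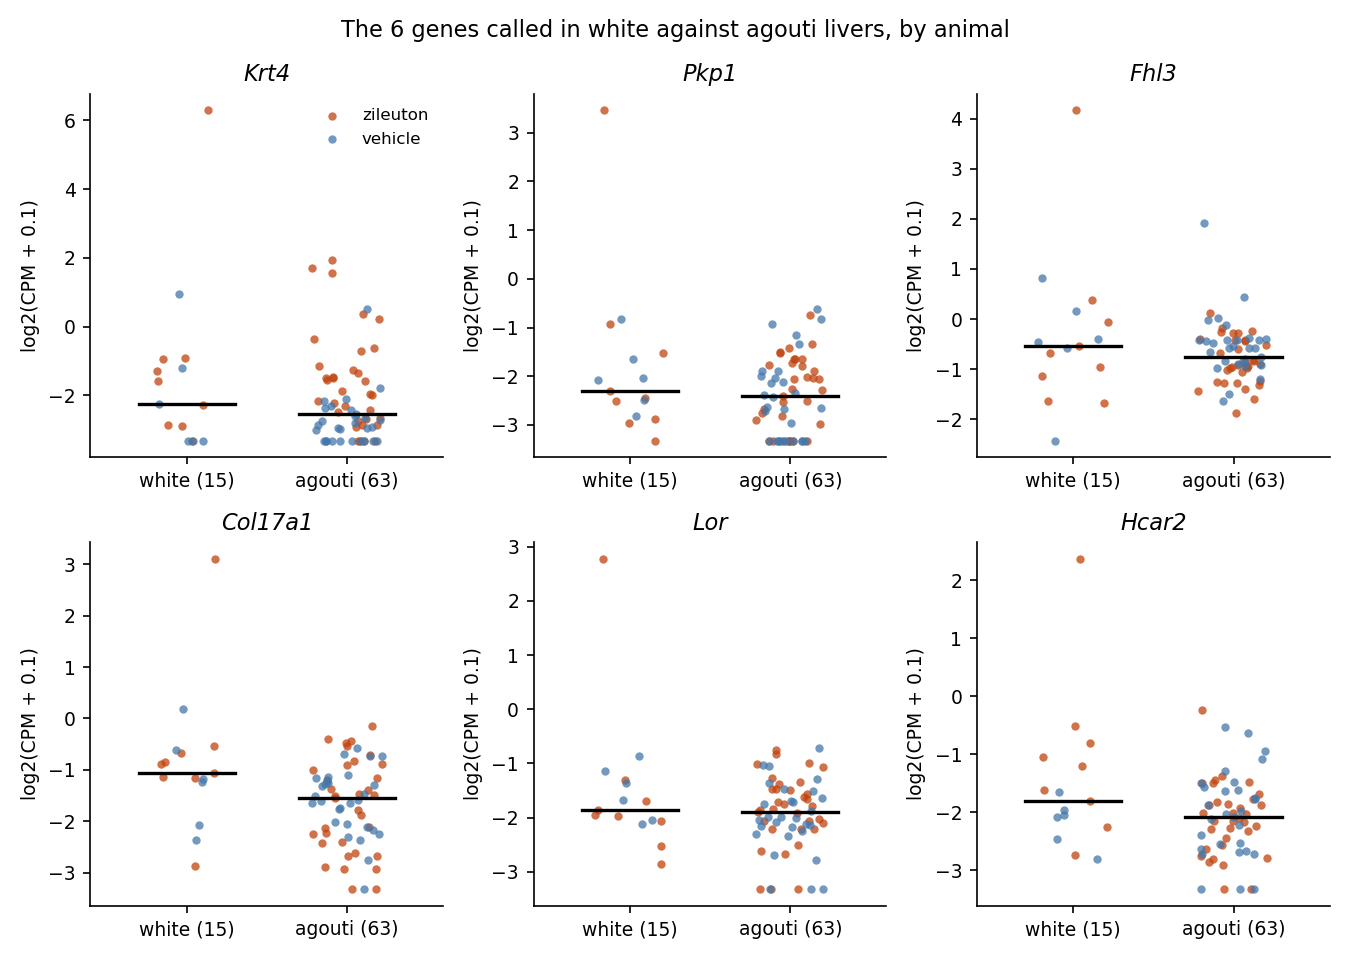
Level of the 6 genes called in white against agouti livers, as log2(CPM + 0.1), 1 point per animal, coloured by exposure, with a black line at each group's median. For 5 genes 1 white animal, white replicate 9, lies far above all others (78.8 CPM for Krt4), and for Hcar2 another white animal does so at 5.09 CPM.

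Hcar2 (chromosome 5, 123863570 to 123865499) was highest in another animal. It ranged from 0.0429 to 5.09 CPM in white animals with a median of 0.186 CPM, and from 0 to 0.747 CPM in agouti animals with a median of 0.137 CPM. White replicate 12 (zileuton) carried the 5.09 CPM, and the next white animal was at 0.603 CPM, below the highest agouti animal. The log2 fold change was 1.62 ± 0.36 SE (edgeR adjusted p = 0.0428). It was 1.62 without the pair of libraries of highest Acta1 (edgeR adjusted p = 0.346), and 0.44 without white replicate 12 (edgeR adjusted p = 0.870). With run as a term it was 1.10 (edgeR adjusted p = 0.677), with plate row and column 0.79 (edgeR adjusted p = 0.888), and 1.12 with run as a term and without the pair (edgeR adjusted p = 0.657).

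White replicate 9 held a wider set of stratified epithelium transcripts, several of them absent or nearly so elsewhere. The list of 21 genes used here was chosen after the values were seen and is given as a description. Of its 19 members in the table, 17 were highest in that library. The exceptions were Perp, a desmosomal protein gene at 78.2 CPM or more in every library, and Sprr1a, a cornified envelope gene, at 0.390 CPM in that library and at up to 1.53 CPM in white and 1.78 CPM in agouti animals. Krt13, the partner keratin of Krt4 in the oesophagus, had 3012 counts there (107 CPM) and 0 counts in each of the other 77 libraries. Krt5, a keratin of basal epithelial cells, was at 79.2 CPM there and at 0 counts in 75 of the 76 libraries outside the pair. Trp63, the transcription factor of basal epithelium, was at 5.78 CPM there, against 0.657 CPM in agouti replicate 6 and no more than 0.0538 CPM elsewhere. In that library, liver RNA was accompanied by transcripts of muscle and of stratified epithelium; where they came from was not tested.

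Without the pair of libraries no gene was called. The edgeR test found 0 of 14168 genes (0%), with a smallest adjusted p of 0.346. An unadjusted p under 0.05 was reached by 911 genes (6.43%), 494 higher and 417 lower in white animals. With all libraries that number was 984 (6.93%), 554 higher and 430 lower. Leaving out white replicate 9 alone also gave 0 calls, with 914 genes at that p. Leaving out agouti replicate 6 alone gave 44 calls, 41 of them higher in white. Within vehicle animals the edgeR test called 0 of 13709 genes, with 638 at an unadjusted p under 0.05. Within zileuton animals it called 37 of 13666 genes (0.271%), 36 of them higher in white, and 35 had their highest value in white replicate 9. Without that library zileuton animals gave 0 calls, with 601 genes at an unadjusted p under 0.05.

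The intervals bound what these animals could have shown. Without the pair, 93.8% of tested genes had a 95% interval of the coat difference inside a 2-fold change in either direction, and 82.4% inside a 1.5-fold change. The median standard error of the log2 fold change was 0.092. The median log2 fold change over all genes was -0.01.

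**Figure D2:**
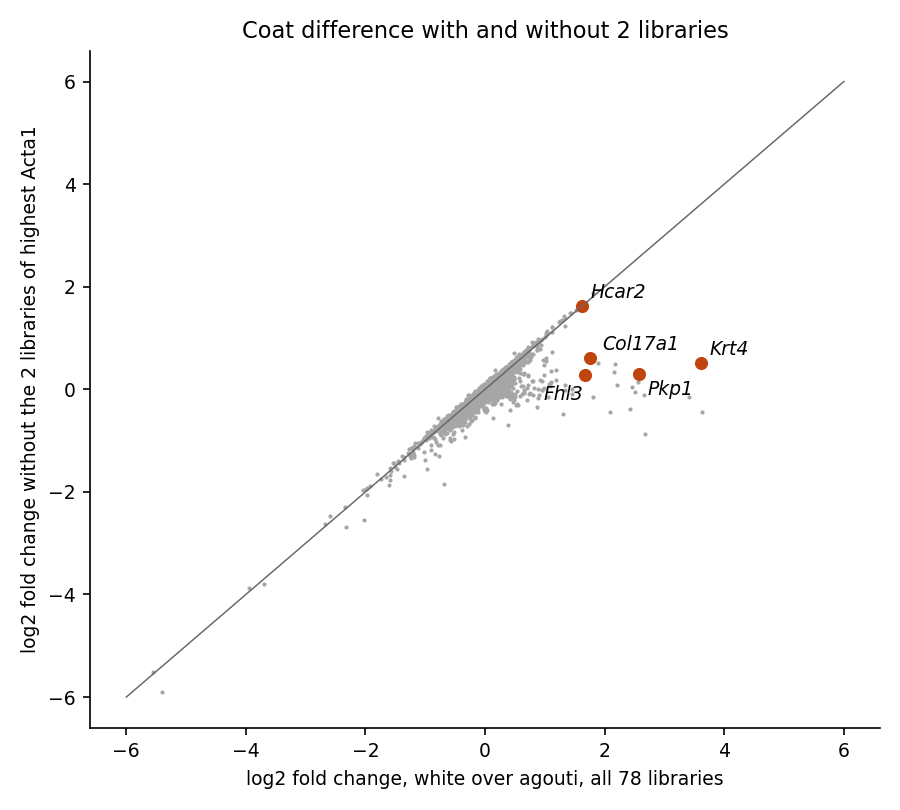
Log2 fold change of white over agouti for each tested gene, with all 78 libraries (x axis) and without the 2 libraries of highest Acta1 (y axis), with the line of equal values in grey. The called genes Krt4, Pkp1, Fhl3 and Col17a1 lie between 1.67 and 3.61 on the x axis and between 0.27 and 0.61 on the y axis, Hcar2 is at 1.62 on both, and Lor is not drawn because it could be tested only with all libraries.

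Near Tyr no gene was called, although a larger share of genes there had a low unadjusted p than elsewhere. Of 91 tested genes within 10 Mb of Tyr, 0 were called by edgeR with all libraries and 0 without the pair. An unadjusted p under 0.05 was reached by 12 (13.2%) with all libraries and by 15 (16.5%) without the pair, beside 6.93% and 6.43% of all genes. Without the pair the share was 6 of 23 genes (26.1%) within 5 Mb, 9 of 68 (13.2%) from 5 to 10 Mb, 8 of 118 (6.78%) from 10 to 20 Mb, 14 of 205 (6.83%) from 20 to 40 Mb, 43 of 639 (6.73%) beyond 40 Mb on chromosome 7 and 816 of 12893 (6.33%) on other chromosomes. These shares are descriptions. Neighbouring genes share founder segments and are not independent, and the step was not tested. Around the agouti gene a on chromosome 2, 8 of 182 genes (4.40%) within 10 Mb had such a p.

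The share near Tyr was not the same in every subset. The pair of highest Acta1 was left out of each fit in this paragraph. When runs of 50 consecutive animal numbers entered the fit, the share was 14 of 91 genes, beside 6.11% of all genes. With no run term and without white replicate 14 it was 12 of 92, beside 4.64%. Run 4, the only run with more than 2 white animals, gave 5 of 92 genes beside 4.49% of all genes, and the other runs together gave 7 of 93 beside 5.02%. The labels do not say what the runs were, and 7 of 15 white but 9 of 63 agouti animals fell in run 4.

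**Figure D3:**
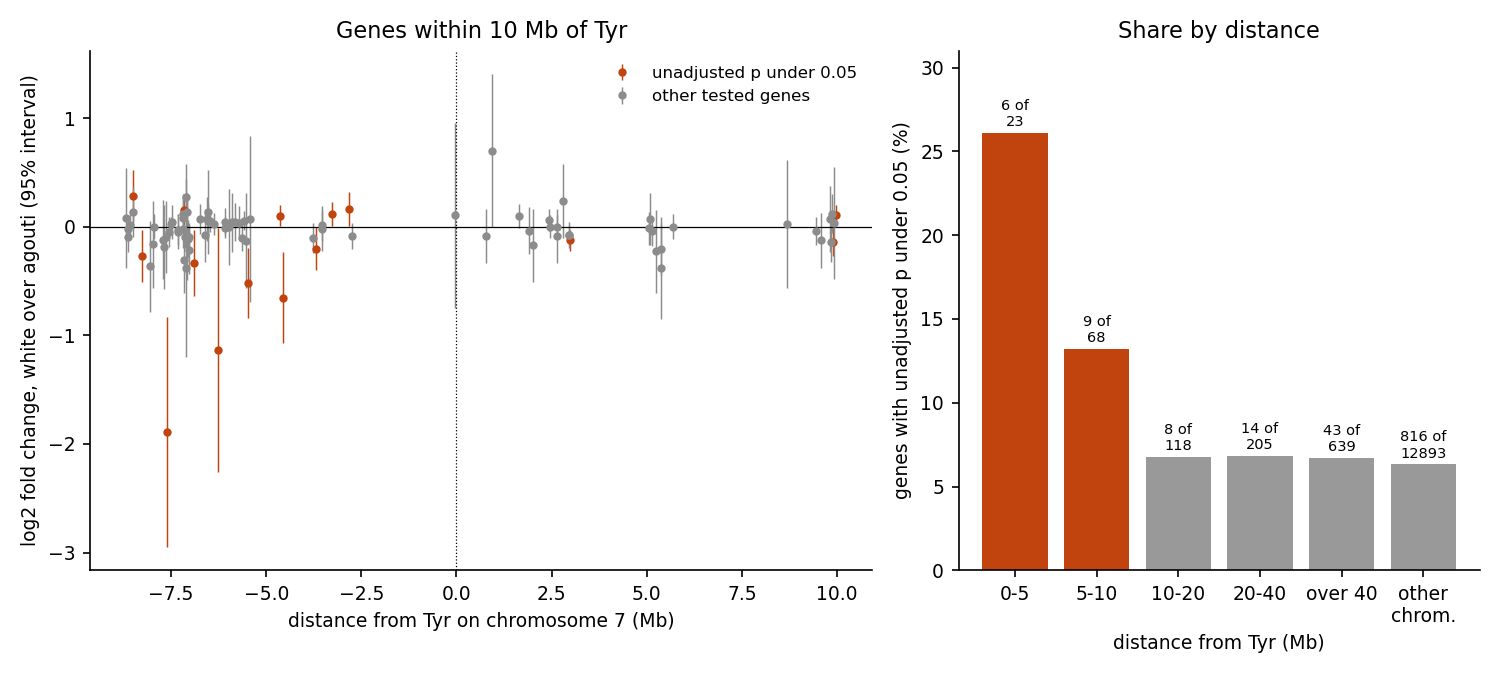
Left: log2 fold change of white over agouti with its 95% interval for the 91 tested genes within 10 Mb of Tyr, against distance from Tyr in Mb, without the 2 libraries of highest Acta1, with genes at an unadjusted p under 0.05 in orange. Right: share of genes at that p by distance, falling from 26.1% within 5 Mb to between 6.33% and 6.83% beyond 10 Mb and on other chromosomes.

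The lowest p near Tyr belonged to Mesp2, a transcription factor of somite segmentation, 7.61 Mb from Tyr. It ranged from 0 to 0.370 CPM in white animals with a median of 0.125 CPM, and from 0 to 2.82 CPM in agouti animals with a median of 0.261 CPM. White animals filled only the low end of the agouti range. The log2 fold change was -1.93 ± 0.51 SE with all libraries (edgeR adjusted p = 0.204) and -1.89 without the pair (edgeR adjusted p = 0.430). Its counts were low, 884 over the 78 libraries and no more than 63 in any.

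Among more abundant genes of that stretch, Tmem126b, a factor for assembly of mitochondrial complex I, ranged from 7.81 to 10.5 CPM in white animals (median 9.03) and from 6.92 to 12.8 CPM in agouti animals (median 9.67). Its log2 fold change was -0.14 ± 0.05 SE (edgeR adjusted p = 0.477) and -0.13 without the pair. Ndufc2, a complex I subunit, had medians of 47.3 CPM in white and 53.8 CPM in agouti animals (log2 fold change -0.15, edgeR adjusted p = 0.679, and -0.14 without the pair). Fah, the last enzyme of tyrosine breakdown, ranged from 499.7 to 771 CPM in white animals (median 608) and from 287 to 860 CPM in agouti animals (median 533). Of the white animals, 13 were above and 2 below the agouti median, and the log2 fold change was 0.18 ± 0.08 SE (edgeR adjusted p = 0.654) and 0.16 without the pair. Hdgfl3 and Mex3b were low in both coats, with medians of 0.836 and 0.248 CPM in white animals, against 0.977 and 0.390 CPM in agouti animals.

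The 5 nearest tested genes on each side of Tyr did not pass the test. On the lower-coordinate side they were Nox4, Zfand6, Fah, Abhd17c and Mesd, and on the other side Ctsc, Rab38, Tmem135, Fzd4 and Prss23. Nox4, a NADPH oxidase gene 0.0261 Mb from Tyr, ranged from 1.13 to 13.3 CPM in white animals (median 4.56) and from 0.0434 to 20.8 CPM in agouti animals (median 3.44). That spread left its log2 fold change at 0.05 with an interval from -0.79 to 0.89, and at 0.11 with an interval from -0.75 to 0.96 without the pair. Rab38, a small GTPase of melanosome transport 0.937 Mb from Tyr, had medians of 0.845 CPM in white and 0.349 CPM in agouti animals. Its log2 fold change was 0.77 ± 0.34 SE (edgeR adjusted p = 0.684), 0.70 without the pair, and 0.49 without the pair and with run as a term. Ctsc, the lysosomal dipeptidase cathepsin C, had medians of 144 CPM in white and 153 CPM in agouti animals. Besides these and Fah, the members of these 10 had log2 fold changes between -0.16 and 0.10.

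The beta globin genes also lie on chromosome 7, 16.3 Mb from Tyr, and are markers of blood in the sample. Hbb-bs ranged from 21.6 to 104 CPM in white animals (median 49.8) and from 11.1 to 305 CPM in agouti animals (median 56.5). The log2 fold changes were -0.30 for Hbb-bs, -0.42 for Hbb-bt and -0.14 for the alpha globin Hba-a1 on chromosome 11, with edgeR adjusted p-values of 0.905, 0.869 and 0.968. Without the pair they were -0.38, -0.58 and -0.26, with edgeR adjusted p-values of 0.895, 0.821 and 0.930, and white replicate 9 had held the highest white value of Hba-a1, 225 CPM. The coat groups overlapped for all 3 genes.

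A list of mostly cytosolic chaperones, which fold and refold client proteins, had low unadjusted p-values in one direction, though none was called in the main test. The set of 33 genes was chosen after its values were seen, so its counts are a description only. It also holds the mitochondrial chaperonin genes Hspd1 and Hspe1 and the heat shock factor gene Hsf1, which are counted as chaperone genes here. Of the 33, 32 had a log2 fold change above 0 in white against agouti animals, and 19 had an unadjusted p under 0.05, all higher in white, with all libraries and again without the pair, beside 6.93% and 6.43% of all genes. The median log2 fold change was 0.17 with all libraries and 0.19 without the pair, beside -0.01 for all genes in both.

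Hsp90ab1, the constitutive form of the chaperone HSP90 (chromosome 17, 45567775 to 45573271), ranged from 871 to 1498 CPM in white animals with a median of 1003 CPM, and from 573 to 1201 CPM in agouti animals with a median of 918 CPM. Of the white animals, 14 of 15 were above the agouti median. The log2 fold change was 0.26 ± 0.07 SE (edgeR adjusted p = 0.164) with all libraries and 0.28 without the pair (edgeR adjusted p = 0.346). With only genes of a mean CPM of at least 1 tested, Hsp90ab1 passed (edgeR adjusted p = 0.0481), with a log2 fold change again of 0.26. That fit kept all libraries and called 31 genes, among them the muscle genes Acta1, Ckm and Ttn.

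Stip1, the co-chaperone that links HSP70 with HSP90, ranged from 59.5 to 126 CPM in white animals (median 77.1) and from 31.8 to 97.2 CPM in agouti animals (median 64.1). The fitted difference was a log2 fold change of 0.36 ± 0.09 SE (edgeR adjusted p = 0.164) and 0.38 without the pair. Hsp90aa1, the inducible HSP90, ranged from 145 to 529 CPM in white animals (median 207) and from 70.9 to 425 CPM in agouti animals (median 175), with a log2 fold change of 0.50 ± 0.15 SE (edgeR adjusted p = 0.303) and 0.54 without the pair. Hspa8, the constitutive HSP70, had medians of 1341 CPM in white and 1008 CPM in agouti animals and a log2 fold change of 0.40 ± 0.13 SE (edgeR adjusted p = 0.391) and 0.43 without the pair. Cct7, a subunit of the chaperonin that folds actin and tubulin, had medians of 94.8 CPM in white and 88.9 CPM in agouti animals and a log2 fold change of 0.14 ± 0.04 SE (edgeR adjusted p = 0.199) and 0.15 without the pair. The groups overlapped for each of these genes. Of the stress-inducible HSP70 genes, Hspa1a had medians of 2.55 CPM in white and 3.20 CPM in agouti animals. With all libraries its log2 fold change of -0.0018 was the one below 0 among the 33 (edgeR adjusted p = 0.999). Without the pair it was 0.06, and the one below 0 was Fkbp5, at -0.19 (edgeR adjusted p = 0.958). Fkbp5 was at 0.0033 with all libraries, and its highest value, 199 CPM, was in white replicate 9. Hspa1b had medians of 17.8 CPM in white and 16.3 CPM in agouti animals and a log2 fold change of 0.34 (edgeR adjusted p = 0.905).

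White replicate 14 (zileuton) had the highest level of all 78 animals for Hsp90ab1, Hsp90aa1, Hspa8, Stip1, Cct7 and Hsph1. Without it and the pair, 32 of 33 chaperone genes were still above 0 and 14 had an unadjusted p under 0.05, beside 4.64% of all genes; the log2 fold changes were 0.24 for Hsp90ab1, 0.31 for Stip1 and 0.40 for Hsp90aa1. In run 4 alone (6 white and 9 agouti animals without the pair), 31 of 33 were above 0 and 4 had such a p, beside 4.49%. In the other runs together (8 white and 53 agouti animals), 32 of 33 were above 0 and 16 had such a p, beside 5.02%. Hsp90ab1 had a log2 fold change of 0.14 in run 4 and 0.39 outside it.

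**Figure D4:**
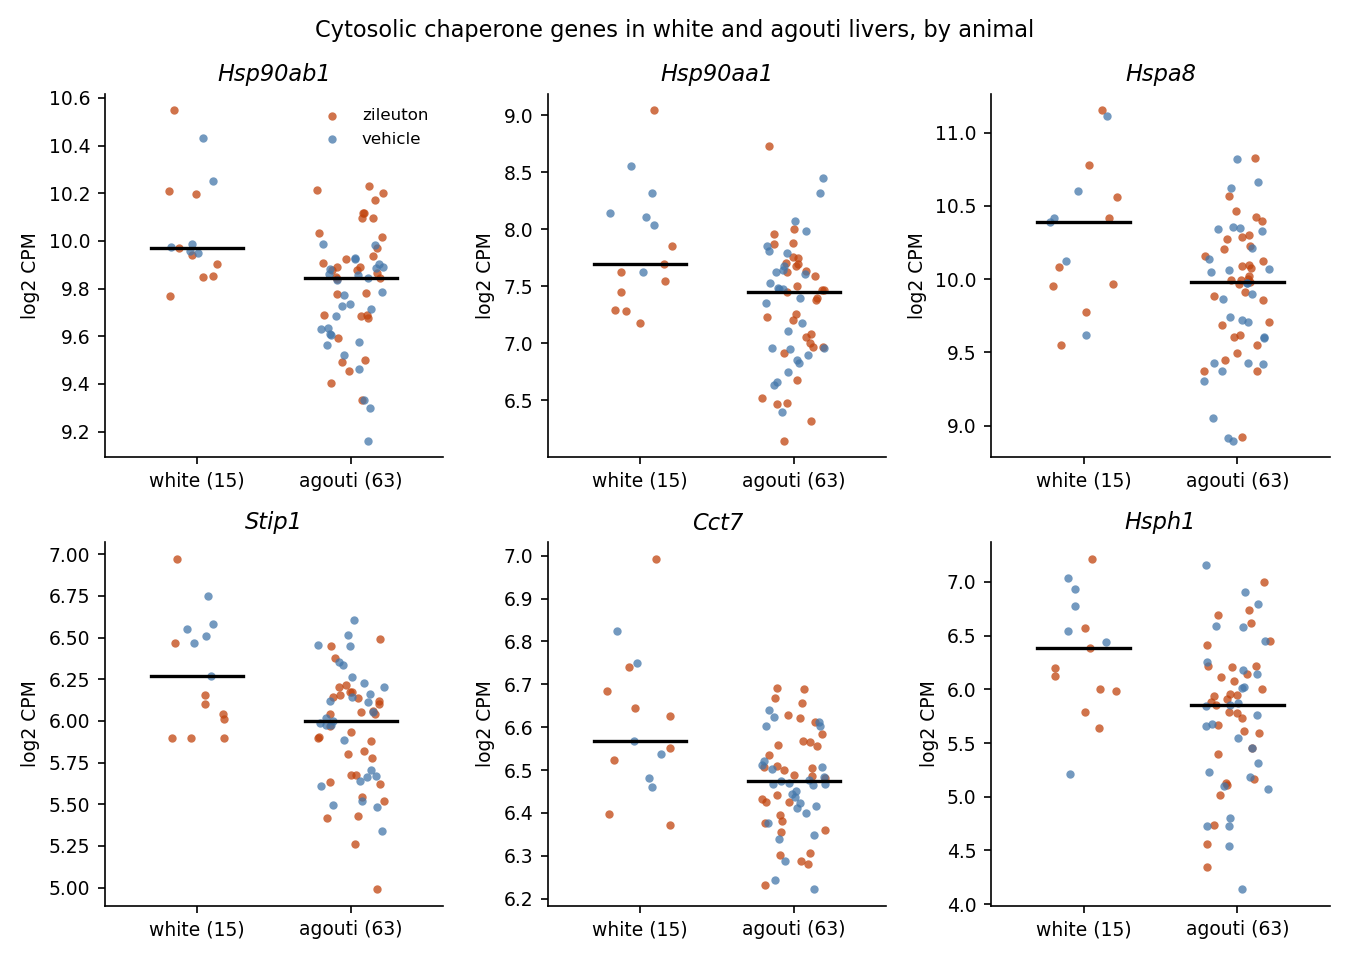
Log2 CPM of 6 cytosolic chaperone genes, 1 point per animal, white left of agouti, coloured by exposure, with a black line at each group's median. The coats overlap in every panel, and the white median is the higher one, 1003 against 918 CPM for Hsp90ab1.

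The heat shock element, the site of heat shock factors, was looked for in chaperone promoters as the letters TTCNNGAA or GAANNTTC. Each reads the same on both strands, and matches may overlap. RefSeq promoters of GRCm38.p6 matched 26 of the 33 genes, and 14 of these (53.8%) held at least 1 match, beside 17% of 27025 genes in the table. That share describes the list, which was chosen after its values were seen and holds stress-inducible genes. Any link of these sites to the coat difference was not tested. Hsph1 and Fkbp4 are shown as chaperones with matches, in capitals, and Stip1 as one of the lowest p without any. Each is on the minus strand, at chr5:149636287-149636586, chr6:128438607-128438906 and chr19:7039977-7040276.
Hsph1: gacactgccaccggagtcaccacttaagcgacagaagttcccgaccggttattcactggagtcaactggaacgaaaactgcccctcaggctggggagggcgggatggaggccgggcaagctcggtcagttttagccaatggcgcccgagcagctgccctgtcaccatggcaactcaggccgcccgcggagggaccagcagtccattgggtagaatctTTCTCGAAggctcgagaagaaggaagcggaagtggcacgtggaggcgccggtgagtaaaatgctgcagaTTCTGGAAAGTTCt
Fkbp4: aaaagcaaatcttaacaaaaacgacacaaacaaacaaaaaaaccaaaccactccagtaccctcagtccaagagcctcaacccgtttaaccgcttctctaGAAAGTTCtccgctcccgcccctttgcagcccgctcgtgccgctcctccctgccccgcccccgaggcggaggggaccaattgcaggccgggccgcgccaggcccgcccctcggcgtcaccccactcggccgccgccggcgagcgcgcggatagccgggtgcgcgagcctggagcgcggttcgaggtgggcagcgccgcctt
Stip1: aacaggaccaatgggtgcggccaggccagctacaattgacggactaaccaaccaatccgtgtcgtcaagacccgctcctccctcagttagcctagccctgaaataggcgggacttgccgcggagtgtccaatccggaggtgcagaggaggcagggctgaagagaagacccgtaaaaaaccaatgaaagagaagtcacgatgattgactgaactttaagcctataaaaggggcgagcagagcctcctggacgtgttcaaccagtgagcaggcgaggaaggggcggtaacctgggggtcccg
Hsph1, a nucleotide exchange factor for HSP70, ranged from 37.01 to 149 CPM in white animals (median 83.5) and from 17.6 to 143 CPM in agouti animals (median 57.7). White over agouti gave a log2 fold change of 0.50 ± 0.18 SE (edgeR adjusted p = 0.499) and 0.55 without the pair. Fkbp4, an immunophilin of the HSP90 complex, had medians of 209 CPM in white and 185 CPM in agouti animals and a log2 fold change of 0.24 ± 0.08 SE (edgeR adjusted p = 0.430) and 0.25 without the pair.

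None of the 30 gene lists set up for liver pathways and cell types held a called gene, beside 6 called of all 14204 genes (0.0422%). At that share few or no calls would fall in these lists, so their absence is not read as a result about the lists. Of the 17 skeletal muscle markers only 2 were tested. The pigment list had 15 of 20 members in the table and 11 tested, of which 6 lay above and 5 below 0, with a median log2 fold change of 0.01 with and without the pair. The unfolded protein response list, of endoplasmic reticulum chaperones and their regulators, had 18 of 20 tested members above 0 and a median of 0.14, and 6 had an unadjusted p under 0.05, all higher in white, beside 6.93% of all genes. Without the pair the median was 0.17 and that count 7, beside 6.43% of all genes, and without white replicate 14 as well it was 3, beside 4.64%. In run 4 alone, again without the pair, it was 10, 9 of them higher in white, beside 4.49%, and outside run 4 it was 2, beside 5.02%. The interferon response list had 21 of 26 members above 0 and a median of 0.14, or 0.17 without the pair. Cholesterol synthesis genes had 22 of 25 members below 0 and a median of -0.10, or -0.13 without the pair. Cell cycle genes had 23 of 28 below 0 and a median of -0.22, against a median of -0.37 without the pair. Circadian clock genes had 13 of 20 below 0 and a median of -0.15, or -0.14 without the pair. Targets of the drug receptors CAR and PXR had 18 of 27 below 0 and a median of -0.11, or -0.08 without the pair. Without the pair an unadjusted p under 0.05 was reached by 1 cell cycle, 2 cholesterol synthesis and 3 clock genes, all lower in white. It was reached by 3 interferon response genes, all higher in white, and by 0 CAR and PXR targets, beside 6.43% of all genes. The hepatocyte marker list had 5 of 10 above and 5 below 0 and a median of 0.02, or 0.00 without the pair. Over all genes tested 6798 lay above and 7406 below 0.

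Zileuton moved liver genes in both coats, and no gene was called for a different response. In white animals zileuton against vehicle gave 15 called genes of 14204 (0.106%), 7 higher and 8 lower, and in agouti animals 3016 (21.2%), 1501 higher and 1515 lower. The groups differ in size, with a median standard error over those 3016 genes of 0.155 in white and 0.074 in agouti animals. Both coats called 12 genes, 80% of the white and 0.4% of the agouti calls. Of the 3016 genes called in agouti animals, 90.1% had the same sign in white animals. Without the pair the counts were 13 in white (0.0918%) and 2911 in agouti animals (20.5%), and 92.3% of those agouti calls had the same sign in white. Of those 2911 genes, 858 had an unadjusted p under 0.05 in white animals, 852 of them in the same direction, beside 11% of all genes.

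The difference of the zileuton effect, white minus agouti, was called by edgeR for 0 genes (0%), with 554 (3.9%) at an unadjusted p under 0.05 and 1 called by DESeq2. Without the pair edgeR called 0 genes, with a smallest adjusted p of 0.692. Cyp2c29, a drug-metabolising cytochrome P450, averaged 8055 ± 2276 CPM in white zileuton animals (SD, n = 9) and 2468 ± 1020 CPM in white vehicle animals (SD, n = 6). In agouti animals it averaged 8745 ± 3088 CPM with zileuton (SD, n = 34) and 2321 ± 1101 CPM with vehicle (SD, n = 29). Cyp1a2, which metabolises caffeine and many drugs, averaged 1321 ± 348 CPM in white zileuton and 577 ± 127 CPM in white vehicle animals, and 1380 ± 431 CPM in agouti zileuton and 653 ± 308 CPM in agouti vehicle animals. For Cyp2c55 the log2 effect without the pair was 3.66 in white and 3.64 in agouti animals, with a difference of 0.02 (edgeR adjusted p = 1.00). Entpd8, a canalicular ectonucleotidase, was lower with zileuton in both coats, by log2 -0.62 in white and -0.38 in agouti animals.

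**Figure D5:**
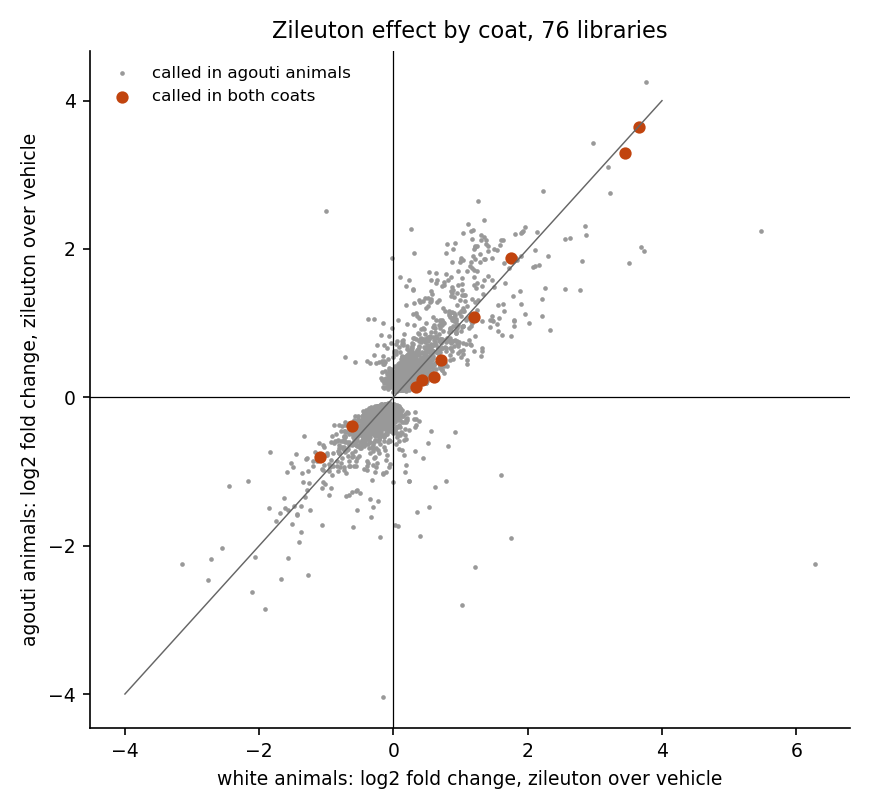
Log2 fold change of zileuton over vehicle in white animals (x axis) and agouti animals (y axis) for the 2911 genes called in agouti animals without the 2 libraries of highest Acta1, with the 10 genes called in both coats in orange and a grey line at equal values. Points lie mostly in the lower left and upper right parts, with 92.3% of genes of the same sign.

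For the spread between animals no gene was called. Absolute deviations from the group median were compared with limma over the 11862 genes whose log2 CPM averaged 0 or more, and 0 were called (0%), with 408 at an unadjusted p under 0.05. Without the pair 0 of 11860 were called (0%), with 449 at that p. White animals had the smaller spread for 59% of all genes and for 70.7% of 75 genes within 10 Mb of Tyr, of which 5 had an unadjusted p under 0.05 with all libraries and 2 without the pair. Deviations from a group's own median run low in small groups, and white groups held 6 and 9 animals against 29 and 34 agouti animals. A factor for group size was applied, but whether it removed that bias was not tested. The shares of 59% and 70.7% are therefore not read as a smaller spread in white animals. The share near Tyr was a description and was not tested.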

How the data were processed

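The first of 2 tables deposited by the authors holds estimated counts per gene and animal, for which reads were aligned and analysed in Partek Flow, per the series' design text (76.7% of values were whole). The second holds a signal made by the authors, the rounded counts of each animal divided by 1 size factor, to within a relative deviation of 5.0e-06 above 50 counts. Samples of an RNA integrity number below 8 were dropped, and libraries were made with the TruSeq kit and read on a HiSeq instrument, per the labels' protocols. Partek, STAR, DESeq2 and mm10 are listed, without versions or roles, per the submitters' processing notes. Which program counted reads, with what annotation and strand setting, is not given in the sources used here.

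Estimated counts were rounded and fitted with edgeR 4.0.16 (quasi-likelihood F test, TMM, filterByExpr over coat and exposure, robust dispersion) in R 4.3.3, with coat and exposure as terms, two-sided, and Benjamini-Hochberg adjustment over all genes tested. SE and 95% intervals are of the log2 fold change. CPM uses TMM library sizes. At these totals the spread between animals set the precision (biological coefficient of variation 33.8%). Zileuton effects were fitted per coat with their difference. The spread test used limma 3.58.1 on log2 CPM with a prior count of 2. Positions are from GENCODE M21 (mm10), matched for 17848 of 18223 symbols (97.9%), and promoters from RefSeq GRCm38.p6. The fit was tested on simulated counts.

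The coat groups, members and lists were chosen with earlier results of these data known. Named genes were to be called genes whose CPM averaged 1 or more, with medians in the fold's direction, and called genes near Tyr. Also planned were the 5 nearest tested genes on each side of Tyr, called list members, Acta1, Tyr and the globins. The chaperone and epithelium genes were chosen after their values were seen. Mesp2, Tmem126b, Ndufc2, Hdgfl3 and Mex3b were not called and were named for a low unadjusted p near Tyr. Genes named for their zileuton effect were outside this rule. Alternatives covered scaling, filter, tool (DESeq2 1.42.0, limma-voom), the authors' signal with pseudocounts of 1 and 0.5, covariates (run, row and column of the plate, 20 surrogate variables by sva 3.50.0), black animals, depth, exposure arms and leaving out each library. The gene DESeq2 called for the difference of the zileuton effect is not reported here. Each library is 1 animal, and the numbers of replicates pair no samples.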

Additional observations from a re-analysis of the deposited data

Results flagged for a closer look

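Within the 6 white vehicle and the 9 white zileuton animals, the gap of the highest or lowest animal to its neighbour was divided by the whole range for the 6 called genes and for Hsp90ab1, Stip1, Hsp90aa1 and Cct7. Of 20 such groups, 10 held an animal past Dixon's critical value, 0.625 for 6 and 0.493 for 9 animals. The rule marks about 1 in 20 groups by chance, but these genes were chosen for their values, so the number marked is not compared with that rate. White replicate 9 stood apart in zileuton animals for Krt4 (0.994), Pkp1 (0.961), Fhl3 (0.944), Col17a1 (0.935) and Lor (0.960). White replicate 12 stood apart for Hcar2 (0.890). White replicate 14 stood apart for Hsp90ab1 (0.50), Stip1 (0.560) and Hsp90aa1 (0.772). In white vehicle animals the Krt4 value of white replicate 2 stood apart (0.819), at 1.84 CPM.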

How the results depend on the processing

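The 6 calls of the coat comparison were also 6 with RLE size factors, with library totals alone and with no exposure term, 7 with black animals in the fit and 5 without the 8 libraries of lowest total. They became 176 with no filter (153 away from chromosome 7 and 2 within 10 Mb of Tyr), 31 with a mean CPM of at least 1 (25 away from chromosome 7) and 37 in zileuton animals alone (32 away). DESeq2 called 1 (1 away), which was Mael, lower in white (log2 fold change -5.65), and none of the 6. Of the 6, 5 were among the 7 calls with black animals, 6 among the 176, 1 among the 31 and 3 among the 37. Counts of 0, in all and away from chromosome 7, came from limma-voom (1054 genes at an unadjusted p under 0.05), from limma on the authors' signal with either pseudocount (877 and 875), from edgeR with run (880), plate row and column (804) or surrogate variables (706) as terms, from vehicle animals alone, without the pair of highest Acta1 with or without run as a term (866 and 911), and from zileuton animals without their library of highest Acta1. Leaving out 1 library gave between 0 (white replicate 9) and 44 calls (agouti replicate 6; 40 away from chromosome 7), and between 5 and 6 for every other library. For the difference of the zileuton effect DESeq2 called 1 gene and each edgeR fit 0. Log2 fold changes turned to -1.35 for Krt4 in zileuton animals without their library of highest Acta1, and to -0.0412 for Fhl3 and -0.0386 for Lor with surrogate variables. Under no filter Hsp90ab1, Stip1, Cct7 and Mesp2 passed (edgeR adjusted p = 0.0186, 0.0219, 0.0316 and 0.0383). That fit kept all libraries, and its 176 calls included Krt14, Krt15 and Krtdap, each highest in white replicate 9. None of the 4 passed under the main filter, either with the pair of highest Acta1 (edgeR adjusted p = 0.164, 0.164, 0.199 and 0.204) or without it. An unfiltered fit without the pair was not run. The cause of these shifts was not tested. Of the alternatives to named genes' values, 491 were counted as unchanged and 63 lost significance. Unchanged values kept direction and side of the threshold. Where neither fit called the gene, a change of sign that moved the value by no more than its SE was also counted as unchanged. Low counts limit Tyr and Mesp2. Runs, chaperone subsets, the pair with run and leaving out each agouti library were added after the data were seen. No paired analysis was possible because replicate numbers follow deposition order and pair no animals.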
